A study of Mus musculus with 4 samples.

Results

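The genes described here are 39 genes that act in the G2 phase and in mitosis, a list of genes of known function that was drawn up with earlier results of these data known, out of 19938 genes with a level in the series. A gene's level was that of its probe set with 1 gene symbol and the highest mean over the 4 arrays. All 39 were found, and all 39 lay above the floor for expression on each of the 4 arrays. The floor of an array was percentile 95 of its values for 1207 receptor genes of smell and pheromone sensing, for which no expression is expected in the gut. Ccnb1, the partner of Cdk1 beside Ccnb2, is not in the list and was not analysed here.

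Mitosis is started by the kinase CDK1 bound to A- and B-type cyclins, which PLK1 and the Aurora kinases help to activate and carry out. The kinetochore joins each chromosome to spindle microtubules, and the spindle checkpoint holds the cell in metaphase until all chromosomes are attached. The ubiquitin ligase APC/C with its activator CDC20 then releases the sister chromatids, and the central spindle and a contractile ring divide the cell. In the small intestine nearly all dividing epithelial cells lie in the crypts, where Lgr5-positive stem cells at the base and the transit-amplifying cells above them cycle, while Paneth cells and the differentiated cells of the villus do not.

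The study deleted Slc39a7, which encodes the zinc transporter ZIP7, in the intestinal epithelium of adult mice and asked about proliferation and stem cells. Small intestinal crypt cells were sorted by flow cytometry after 2 days of tamoxifen, and each combination of genotype and sort label was measured on 1 array. Control mice were Zip7flox/+ and Zip7 KO mice Zip7flox/flox, so the controls also carry 1 copy that can be deleted. Mice of either genotype carried villin-CreERT2, whose promoter is active in the intestinal epithelium, and Lgr5-EGFP-ires-CreERT2, a reporter in the Lgr5 gene that itself brings a second source of CreERT2. Biotin-labelled cDNA was measured on Affymetrix arrays, and the values used are the log2 RMA values that the authors deposited for each probe set. The 2 sort labels are Lgr5-Hi and Lgr5-Med (Lgr5-Mid in the titles). The labels do not give the number of mice behind an array, or whether both fractions of a genotype came from the same mice. Since each group is a single array with no replicate, no difference below was tested, and every count is set beside the same count over all genes. In sorted bulk RNA, fewer dividing cells and less mitotic RNA per dividing cell cannot be told apart.

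In the order control Lgr5-Hi, control Lgr5-Med, Zip7 KO Lgr5-Hi and Zip7 KO Lgr5-Med, which is kept for all values below, the deleted gene Slc39a7 stood at 8.92, 8.61, 9.02 and 8.22 on the log2 scale. The Zip7 KO value was lower by a difference of -0.39 under Lgr5-Med and higher by 0.10 under Lgr5-Hi, so a lower level of the deleted gene was seen under 1 of the 2 labels. The sources used here do not say whether its probes lie in the floxed part. Lgr5 stood at 7.79, 10.97, 7.93 and 11.24, so the arrays labelled Lgr5-Hi held less Lgr5 RNA than those labelled Lgr5-Med, against the labels, and the stem cell genes Ascl2 (7.65, 9.54, 7.51 and 9.40) and Olfm4 (12.88, 13.53, 12.68 and 13.75) ran the same way. The labels are kept as given, and directions between fractions follow them. The epithelial gene Epcam was at 11.57 to 11.66 on every array, and Vil1, the gene of villin, at 11.64, 11.58, 11.66 and 11.28. Xist stood at 11.64, 11.84, 5.59 and 5.43 and the Y-linked Eif2s3y at 4.10, 4.24, 8.12 and 8.11, so sex and genotype cannot be told apart.

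Over the 4 arrays the mitotic genes had a common shape, highest in the control array labelled Lgr5-Med. That array was the highest of the 4 for 29 of the 39 genes, where 27.6% of all genes had their highest level in it, and it was the lowest for 0 of the 39, against 16.9% of all genes. The Zip7 KO array labelled Lgr5-Hi was the lowest for 24 of the 39, against 24.3% of all genes. When each array was centred on its median, the control array labelled Lgr5-Med was the highest for 34 of the 39 genes, but then also for 49.3% of all genes. The size of these differences was small. The range of a gene over the 4 arrays ran from 0.16 to 0.65, with a median of 0.36, against 0.32 for all genes, and none of the 39 differed by 2-fold (1 on the log2 scale) in any of the 4 comparisons. Of all genes, 0.234% were at least 2-fold lower and 0.250% at least 2-fold higher in Zip7 KO under Lgr5-Hi, and 0.621% and 0.0653% under Lgr5-Med. Between the array labelled Lgr5-Hi and that labelled Lgr5-Med the shares were 0.523% lower and 0.669% higher in control, and 0.751% and 1.87% in Zip7 KO. Smaller differences were therefore counted too, from a size of 0.322 on the log2 scale, at which the higher level exceeds the lower by 25%.

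**Figure D1:**
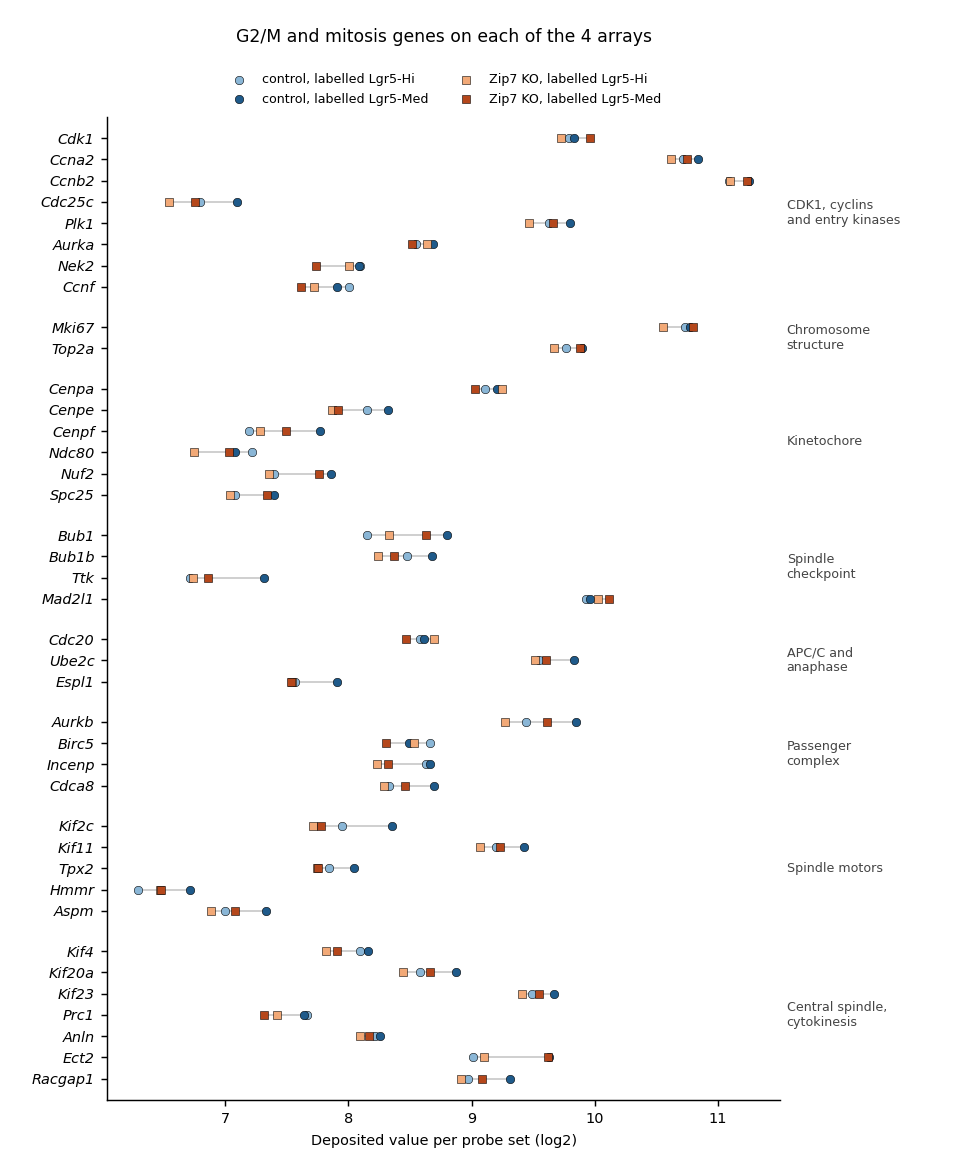
Deposited log2 value of each of the 39 genes (rows, grouped by role) on each of the 4 arrays, 1 point per array and a grey line over the range; levels of different genes come from different probes and are not comparable. The dark blue points, the control array labelled Lgr5-Med, are the rightmost in 29 of the 39 rows.

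Under the label Lgr5-Hi, 29 of the 39 genes were lower in Zip7 KO than in control, where 45.0% of all 11988 genes tested were lower. The median difference was -0.09, against 0.02 over all genes. Lower by at least 0.322 were 2 of the 39, Ndc80 and Incenp, where the share over all genes was 5.56%, and higher by that size 0, against 6.94% of all genes. The count of genes past this size thus lay near the share of all genes, and the pattern was one of many small differences of the same sign.

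Under the label Lgr5-Med, 36 of the 39 genes were lower in Zip7 KO, against 55.8% of all 12243 genes tested. The median difference was -0.21, against -0.03 over all genes. Lower by at least 0.322 were 8 of the 39 (8.40% of all genes), and higher by that size 0 (3.46% of all genes). When each array was centred on its median, all genes together moved from -0.03 to -0.14 with 77.5% of them lower, and 37 of the 39 genes were lower. Centring shifts every gene by the same amount, so the distance of the genes' median from that of all genes stayed at -0.18. Quantile normalisation, which can change this distance, gave -0.14, and removal of the trend on mean level gave -0.18. The count past 0.322 became 19 under centring, with 17.4% of all genes, and 3 with the trend on mean level removed, with 6.95% of all genes.

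Lower under both labels were 27 of the 39 genes, against 30.8% of all 11827 genes tested under both, and higher under both was 1, the checkpoint gene Mad2l1, against 30.0% of all genes. Quantile normalisation gave 30 of the 39 with 40.1% of all genes lower under both, and centring 29 with 41.3%. Lower by at least 0.322 under both was 1 gene, Incenp, against 2.25% of all genes. Both Zip7 KO arrays lay below both control arrays for 13 of the 39, against 15.9% of all genes, and above both for 1, again Mad2l1, against 14.2%. The 13 were Cdc25c, Nek2, Ccnf, Cenpe, Ndc80, Bub1b, Espl1, Incenp, Kif2c, Tpx2, Kif4, Prc1 and Anln. The gap between the lower control and the higher Zip7 KO value ran from 0.022 for Espl1, 0.038 for Cdc25c and 0.049 for Ndc80 to 0.23 for Cenpe and 0.30 for Incenp. Under centring the count was 14, with 23.7% of all genes. For 29 of the 39 the difference under Lgr5-Med lay below that under Lgr5-Hi, against 60.5% of all genes. When the genotype difference under Lgr5-Med was taken from that under Lgr5-Hi, the median was 0.07 for the 39 genes and 0.06 for all genes, so on this measure the mitotic genes stood close to the background.

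**Figure D2:**
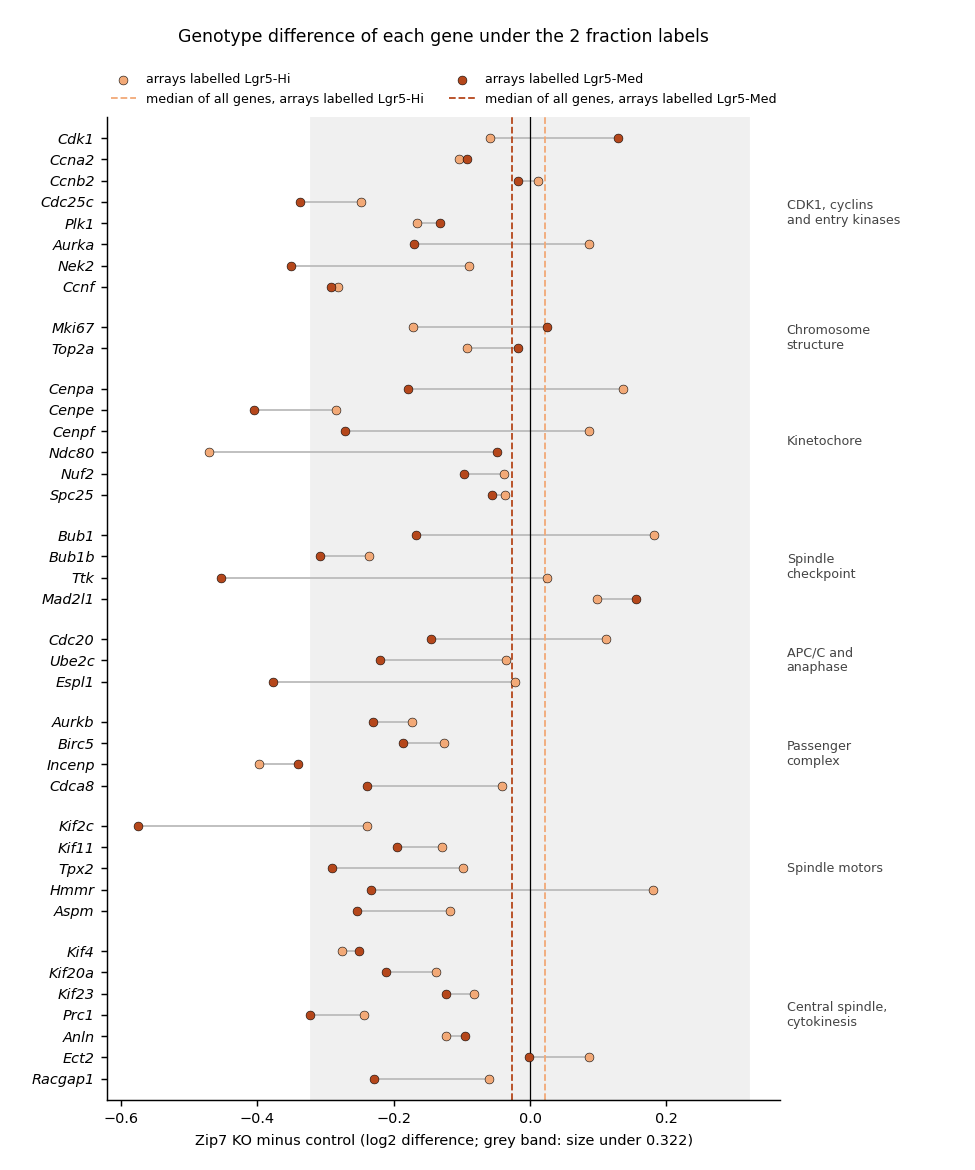
Zip7 KO minus control (log2) for each of the 39 genes under the label Lgr5-Hi (light) and Lgr5-Med (dark), 1 array against 1 array; dashed lines are the medians of all genes (0.02 and -0.03) and the grey band marks sizes under 0.322. Dark points lie left of 0 for 36 of the 39 genes and light points for 29.

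The 8 genes of mitotic entry were lower in 6 cases under Lgr5-Hi and in 7 under Lgr5-Med. Cdk1, the mitotic kinase itself, stood at 9.79, 9.83, 9.73 and 9.96, with genotype differences of -0.06 and 0.13 that had opposite signs. Plk1, the polo-like kinase of spindle assembly, stood at 9.63, 9.79, 9.46 and 9.66. Its Zip7 KO value was below the control under either label, by a difference of -0.17 and -0.13. Cdc25c, a phosphatase that removes inhibitory phosphates from CDK1, was at 6.79, 7.09, 6.55 and 6.76, which gives -0.25 and -0.34. Both Zip7 KO values of Cdc25c were below both control values. Ccnf, a cyclin that serves as the substrate receptor of a ubiquitin ligase, was likewise lower in both Zip7 KO arrays than in either control array, at 8.01, 7.91, 7.72 and 7.62. Its differences were -0.28 and -0.29. Nek2, a centrosome kinase, was at 8.09, 8.09, 8.002 and 7.74, with a genotype difference of -0.09 under Lgr5-Hi and of -0.35 under Lgr5-Med. The A- and B-type cyclin genes of the list lay closer together between genotypes than Ccnf, with Ccna2 at -0.10 and -0.09 and Ccnb2 at 0.01 and -0.02, the first of the Ccnb2 values turning negative under quantile normalisation, centring and loess. Aurka, the Aurora kinase of centrosomes, was at 0.09 and -0.17.

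The proliferation marker Mki67, whose protein coats mitotic chromosomes, stood at 10.73, 10.77, 10.56 and 10.80. Only the Zip7 KO array labelled Lgr5-Hi was low, by -0.17, and the difference under Lgr5-Med was 0.03, which turned negative under quantile normalisation and centring. Top2a, the topoisomerase that untangles sister chromatids, was at 9.76, 9.90, 9.67 and 9.88, with differences of -0.09 and -0.02. It was the only one of the 39 with a second probe set of 1 symbol, which lay below the floor on each array. Probe sets listed for Top2a together with another symbol were not used. Their genotype differences were larger, -0.30 and -0.41 for the first and -0.27 and -0.20 for the second. On the probe sets used, these markers of cycling cells thus differed less under Lgr5-Med than the median of the 39 genes, -0.21.

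Among the 6 centromere and kinetochore genes, 4 were lower under Lgr5-Hi and 6 under Lgr5-Med. Ndc80, the microtubule-binding subunit of the outer kinetochore, had the lowest genotype difference of the 39 under Lgr5-Hi. It stood at 7.21, 7.08, 6.74 and 7.03, and the Zip7 KO array labelled Lgr5-Hi was the lowest, with a difference of -0.47, while the difference under Lgr5-Med was -0.05. Of all genes, 1.84% were as low under Lgr5-Hi. Its complex partners had smaller differences. Nuf2, at 7.39, 7.86, 7.35 and 7.76, was at -0.04 and -0.10. Spc25, at 7.08, 7.39, 7.04 and 7.34, was at -0.04 and -0.06. The 2 partner genes instead separated the fractions, as described below. Cenpe, the kinesin that carries chromosomes to the spindle equator, was lower in both Zip7 KO arrays than in either control array, at 8.15, 8.32, 7.86 and 7.92, or -0.29 and -0.41. Cenpf, a large protein of the outer kinetochore, stood at 7.19, 7.77, 7.28 and 7.49, and Cenpa, the histone variant that marks centromeres, at 9.11, 9.21, 9.25 and 9.03. Both had a genotype difference above 0 under Lgr5-Hi, 0.09 and 0.14, and below 0 under Lgr5-Med, -0.27 and -0.18.

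The 4 spindle checkpoint genes were the role group with the fewest lower members under Lgr5-Hi, 1 of 4, and 3 of 4 were lower under Lgr5-Med. Bub1, a checkpoint kinase, was at 8.15, 8.80, 8.33 and 8.63, so that the control array labelled Lgr5-Hi was the lowest, and its genotype differences were 0.18 and -0.17. Ttk, the kinase that starts checkpoint signalling, was at 6.71, 7.31, 6.74 and 6.86. Its control array labelled Lgr5-Med stood above the other arrays, which gave 0.03 under Lgr5-Hi (negative under quantile normalisation) and -0.45 under Lgr5-Med. Bub1b, which encodes the checkpoint protein BUBR1, was at 8.48, 8.68, 8.24 and 8.37, both Zip7 KO values being below both controls, by -0.24 and -0.31. Mad2l1, which binds and restrains CDC20, was at 9.92, 9.96, 10.02 and 10.12, higher by 0.10 and 0.16. Of all genes 33.8% and 15.8% were as high.

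Of the 3 genes of the APC/C and of anaphase, 2 were lower under Lgr5-Hi and 3 under Lgr5-Med. Espl1, which encodes separase, the protease that opens cohesin, stood at 7.57, 7.91, 7.54 and 7.53. Its control array labelled Lgr5-Med was alone above the others, with a genotype difference of -0.38 there and -0.02 under Lgr5-Hi. Ube2c, the ubiquitin-conjugating enzyme of the APC/C, had the same shape, at 9.54, 9.83, 9.51 and 9.61, with -0.03 and -0.22. Cdc20, at 8.58, 8.61, 8.69 and 8.47, was at 0.11 and -0.14.

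All 4 genes of the chromosomal passenger complex, which corrects wrong attachments and acts in cytokinesis, were lower under either label. Its scaffold Incenp stood at 8.63, 8.66, 8.23 and 8.32. Its differences were -0.40 and -0.34, or 1.32-fold and 1.27-fold lower, and the 2 genotypes did not overlap, with fractions of a genotype within 0.10 of each other. Of all genes 3.03% and 7.43% were as low. The kinase Aurkb was at 9.44, 9.84, 9.27 and 9.61, with -0.17 and -0.23. Birc5 (survivin) had -0.13 and -0.19, and Cdca8 (borealin) -0.04 and -0.24.

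Of the 5 genes of spindle motors and microtubule proteins, 4 were lower under Lgr5-Hi and 5 under Lgr5-Med. Kif2c, a kinesin that takes apart microtubule ends at centromeres, had the lowest genotype difference of the 39 under Lgr5-Med. It stood at 7.95, 8.35, 7.71 and 7.78, which is -0.24 (1.18-fold lower) and -0.58 (1.49-fold lower), and 2.15% of all genes were as low under Lgr5-Med. Both Zip7 KO values were below both control values. Hmmr, a spindle protein that binds hyaluronan, stood closest to the floor, at 6.29, 6.71, 6.47 and 6.48, and its differences of 0.18 and -0.23 had opposite signs. Kif11, the kinesin that pushes spindle poles apart, was at -0.13 and -0.19, Tpx2, an activator of Aurora A, at -0.10 and -0.29, and the spindle pole protein Aspm at -0.12 and -0.25.

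Of the 7 genes of the central spindle and cytokinesis, 6 were lower under Lgr5-Hi and 7 under Lgr5-Med. Prc1, which bundles the microtubules of the central spindle, was at 7.66, 7.64, 7.42 and 7.32. Its Zip7 KO values lay below both controls, by -0.24 and -0.32. Kif4, a kinesin on chromosomes and the central spindle and a partner of PRC1, was at 8.09, 8.16, 7.81 and 7.90, also without overlap of the genotypes, by -0.28 and -0.25. Kif4 lies on the X chromosome, and the sex of the mice differed between genotypes as given above. Ect2, the exchange factor that activates RhoA at the cell equator, was at 9.01, 9.62, 9.10 and 9.62. It separated the fractions and not the genotypes, with 0.09 and -0.0017, the latter above 0 with the trend on mean level removed. The partner of ECT2, Racgap1, was at -0.06 and -0.23. The kinesins Kif20a and Kif23 were at -0.14 and -0.21 and at -0.08 and -0.12, and the ring protein Anln at -0.12 and -0.10.

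Between the fractions, 34 of the 39 genes were lower in the control array labelled Lgr5-Hi than in that labelled Lgr5-Med, against 56.7% of all 12248 genes tested, with a median of -0.18 against -0.04. Quantile normalisation gave 29 of 39 and removal of the trend on mean level 28 of 39, with 55.7% and 49.3% of all genes lower. Lower by at least 0.322 were 12 of the 39, against 13.2% of all genes, and higher by that size 0, against 7.70%. This comparison and the genotype comparison under Lgr5-Med share the control array labelled Lgr5-Med, in which most of these genes had their highest level, so their values are not independent. In Zip7 KO, 31 of the 39 were lower under the label Lgr5-Hi, against 50.7% of all 12114 genes, with a median of -0.13 against -0.0045. Lower by at least 0.322 were 3 of the 39, against 12.5% of all genes, and higher by that size 0, against 15.1%.

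Of the 6 genes that separated the fractions most in control, Bub1 and Ttk were also among the 10 with the largest genotype differences under a label, and the other 4 were not. In controls, Bub1 had a difference of -0.65 between the arrays labelled Lgr5-Hi and Lgr5-Med, Ect2 of -0.61, Ttk of -0.60, Cenpf of -0.57, Nuf2 of -0.47 and Hmmr of -0.42. In Zip7 KO these differences were -0.30, -0.52, -0.12, -0.21, -0.41 and -0.0081 in the same order, the last of them turning above 0 with the trend on mean level removed. Ect2 and Nuf2 thus separated the fractions in both genotypes by over 0.322, and so did Aurkb, with -0.40 and -0.34. Spc25 was at -0.31 and -0.30, and Ndc80, its partner, at 0.13 and -0.29. Of the 39 genes 5 in control and 8 in Zip7 KO were higher in the array labelled Lgr5-Hi, against 43.3% and 49.3% of all genes. The 8 in Zip7 KO were Nek2 (0.27), Birc5 (0.23), Cdc20 (0.22), Cenpa (0.22), Aurka (0.12), Ccnf (0.11), Prc1 (0.10) and Espl1 (0.01). Birc5, Ccnf, Prc1 and Nek2 were also higher in control, by 0.17, 0.10, 0.024 and 0.0061. The control values of Prc1 and Nek2 turned below 0 under centring.

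**Figure D3:**
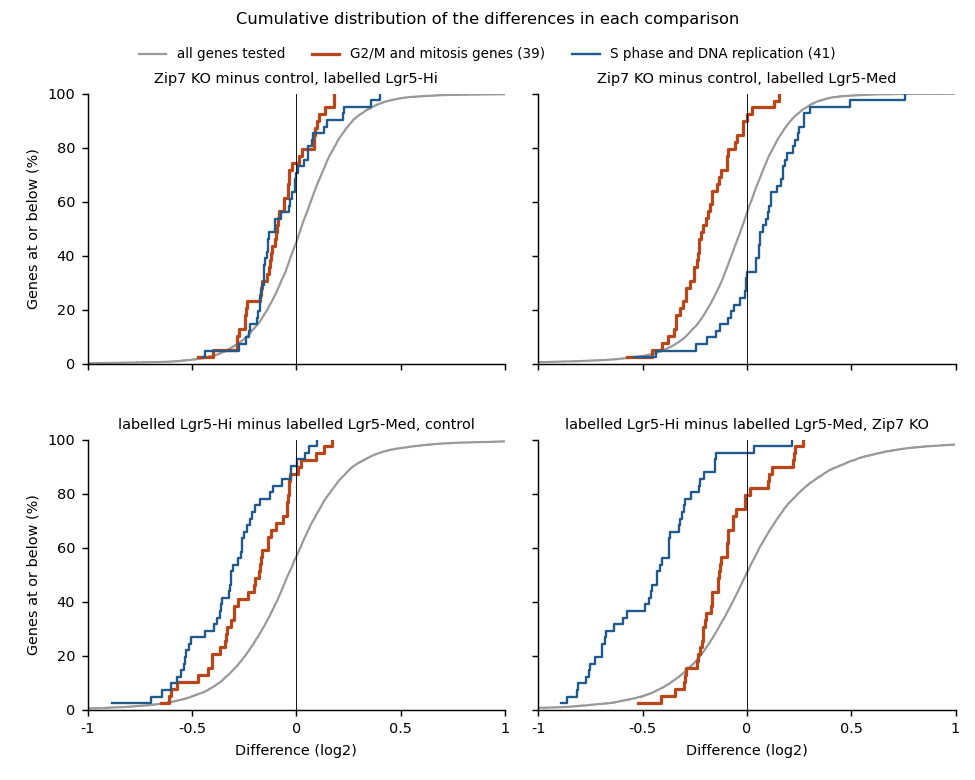
Share of genes (%) at or below each log2 difference, in each of the 4 comparisons of 1 array against 1 array, for all genes tested (grey), the 39 G2/M and mitosis genes (red) and 41 genes of S phase (blue). The red curve lies left of the grey near 0 in each panel, and the blue curve lies right of the grey under the label Lgr5-Med in the genotype comparison.

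Between genotypes, other genes of the cell cycle did not all share the direction of the 39. Of 139 other G2/M genes tested under Lgr5-Med, 81 were lower in Zip7 KO (58.3%, against 55.8% of all genes), with a median of -0.03, the same as that of all genes. Of 138 tested under Lgr5-Hi, 76 were lower (55.1%, against 45.0% of all genes), with a median of -0.02 against 0.02. Of the 5 lists that make up these genes, the list of other spindle, centrosome and cytokinesis genes had the lowest medians, with 30 of 42 lower under Lgr5-Hi (median -0.11) and 31 of 42 under Lgr5-Med (median -0.11). Iqgap3, a scaffold of the cell cortex, was at -0.49 under Lgr5-Med, and the mitotic kinesin Kif14 at -0.47 under Lgr5-Hi. Haus6, a subunit of the augmin complex that branches spindle microtubules, stood on the other side at 0.63 under Lgr5-Med. Regulators of the G2/M programme had 13 of 30 genes lower under Lgr5-Hi and 15 of 30 under Lgr5-Med, with medians of 0.01 and 0.01 whose signs turned under at least 1 scaling. Of the condensin and cohesin list 9 of 22 were lower under either label, with medians of 0.01 and 0.05 whose signs also turned, and Cdca5 (sororin), which protects cohesin, was at -0.45 and -0.47. The cohesin acetyltransferase Esco1 was at 0.44 under Lgr5-Hi. Kinetochore and checkpoint genes outside the 39 had 19 of 30 and 17 of 31 lower, with a median of -0.04 under either label. APC/C genes had 5 of 14 and 9 of 14 lower, with medians of 0.02 and -0.04 whose signs turned under scaling.

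Genes of S phase and DNA replication differed from the mitotic genes under the label Lgr5-Med. There 13 of 41 were lower, with a median of 0.08, where the mitotic genes had -0.21, and under Lgr5-Hi 29 of 41 were lower, with a median of -0.10 beside -0.09. The positive S phase median became -0.03 when arrays were centred, a setting that moved all genes down, and it then still lay above the -0.14 of all genes. Hells, a chromatin remodeller, was at 0.76 and the cyclin Ccne2 at 0.50 under Lgr5-Med, while Pold1, the catalytic subunit of DNA polymerase delta, was at -0.45 and -0.54. Between fractions S phase genes differed more than mitotic genes, with medians of -0.31 in control and -0.43 in Zip7 KO beside -0.18 and -0.13. The G1 list had 4 of 14 and 5 of 14 lower between genotypes, with medians of 0.03 and 0.06 whose signs turned under scaling. Rb1, the retinoblastoma gene, was at 0.50 and the transcription factor E2f2 at 0.42 under Lgr5-Hi.

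**Figure D4:**
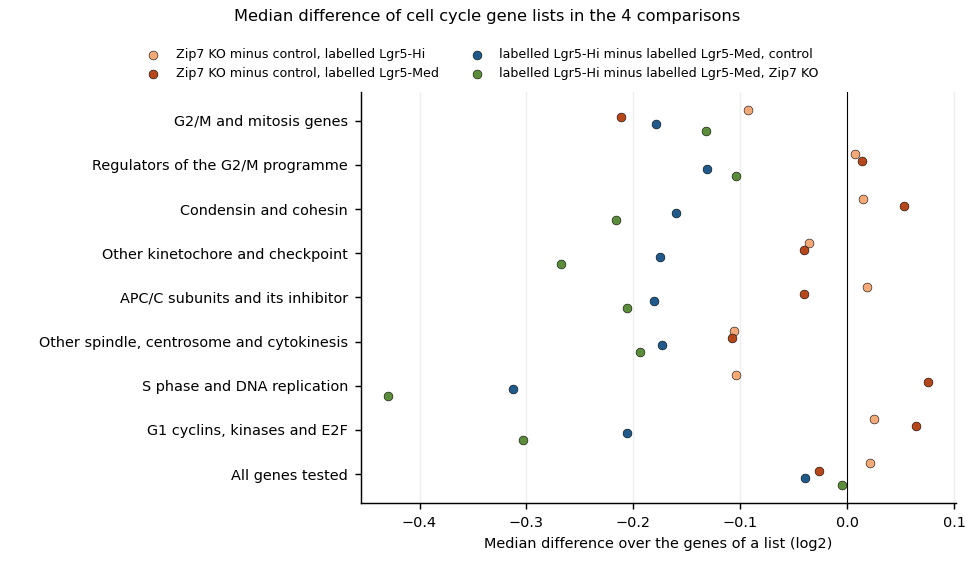
Median log2 difference of each gene list (rows) in each of the 4 comparisons (colours), with all genes tested in the last row; no error bars are drawn because each comparison is of 1 array against 1 array. Among the cell cycle lists drawn, the G2/M and mitosis genes have the lowest median in the genotype comparison under Lgr5-Med, -0.21, where S phase genes are at 0.08.

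Markers of several other cell types differed between genotypes too, not all in the same direction. The mean log2 level of 8 Paneth cell markers was 11.62, 10.71, 10.93 and 9.38, with 7 of 8 lower in Zip7 KO under Lgr5-Hi and 8 of 8 under Lgr5-Med. That of 12 enterocyte markers was 11.32, 11.38, 11.33 and 10.87, with 6 of 12 and 12 of 12 lower. That of 11 lymphocyte markers was 7.42, 7.81, 6.58 and 6.74, with 9 of 9 and 10 of 10 of those tested lower and Cd2 below the floor on every array. Goblet cell markers were lower for 4 of 7 and 6 of 7, with medians of -0.05 and -0.36, and enteroendocrine markers for 6 of 9 and 5 of 9, with medians of -0.32 and -0.20. Tuft cell markers were lower for 2 of 4 and 0 of 4, with medians of 0.02, whose sign turned under scaling, and 0.25. Myeloid markers were lower for 3 of 5 under either label, with medians of -0.13 and -0.45, and those of stroma, endothelium and red blood cells for 6 of 6 and 2 of 6, with medians of -0.18 and 0.04, the latter turning negative under quantile normalisation and centring. Markers of crypt base stem cells were lower in Zip7 KO for 7 of 10 under Lgr5-Hi and 4 of 10 under Lgr5-Med, with medians of -0.09 and 0.13. Between the fractions, all 9 enteroendocrine, 8 Paneth and 7 goblet markers were higher and all 10 markers of crypt base stem cells lower in the arrays labelled Lgr5-Hi. The mean level of the stem cell markers was 9.18, 10.72, 9.10 and 10.86, so in either genotype it was higher in the Lgr5-Med array. Most mitotic genes ran the same way, with 34 of 39 in control and 31 of 39 in Zip7 KO lower under Lgr5-Hi, against 56.7% and 50.7% of all genes. Over the 4 arrays the stem cell mean was highest in the Zip7 KO array labelled Lgr5-Med. For 29 of the 39 mitotic genes the control array labelled Lgr5-Med was highest, against 27.6% of all genes. The part of these cells in the differences of the mitotic genes was not tested.

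The promoters of these genes share letters, which were searched for because they are known at promoters of G2/M genes. A high share in a list of such genes is therefore not independent of the choice of genes. G2/M genes are known for the CHR (cell cycle genes homology region), which binds the DREAM and MuvB complexes, and for CCAAT boxes, which bind NF-Y. Of the 39 genes 33 had a RefSeq promoter window of GRCm38.p6, with 250 bases before and 50 after the start. On either strand, 27 of the 33 (81.8%) held TTTGAA, the common form of the CHR, against 20.2% of all 27025 genes with a window. A CCAAT box was found in 27 of the 33 (81.8%), against 41.1% of all genes, and both in 24 of the 33 (72.7%), against 8.97%. The 100 bases around the start, a window chosen after the positions were seen, held TTTGAA in 25 of the 33 (75.8%), against 5.72% of all genes. TTTAAA, a variant of the CHR, was found in 9 of the 33 (27.3%), against 14.9%. The E2F-like letters TTCCCGC were in 0 of the 33, against 5.29% of all genes, as were TTTCCCGC, which contains them, against 1.24%, and TTTGGCGC, against 0.585%. No match says only that these letters are not in this window.

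**Figure D5:**
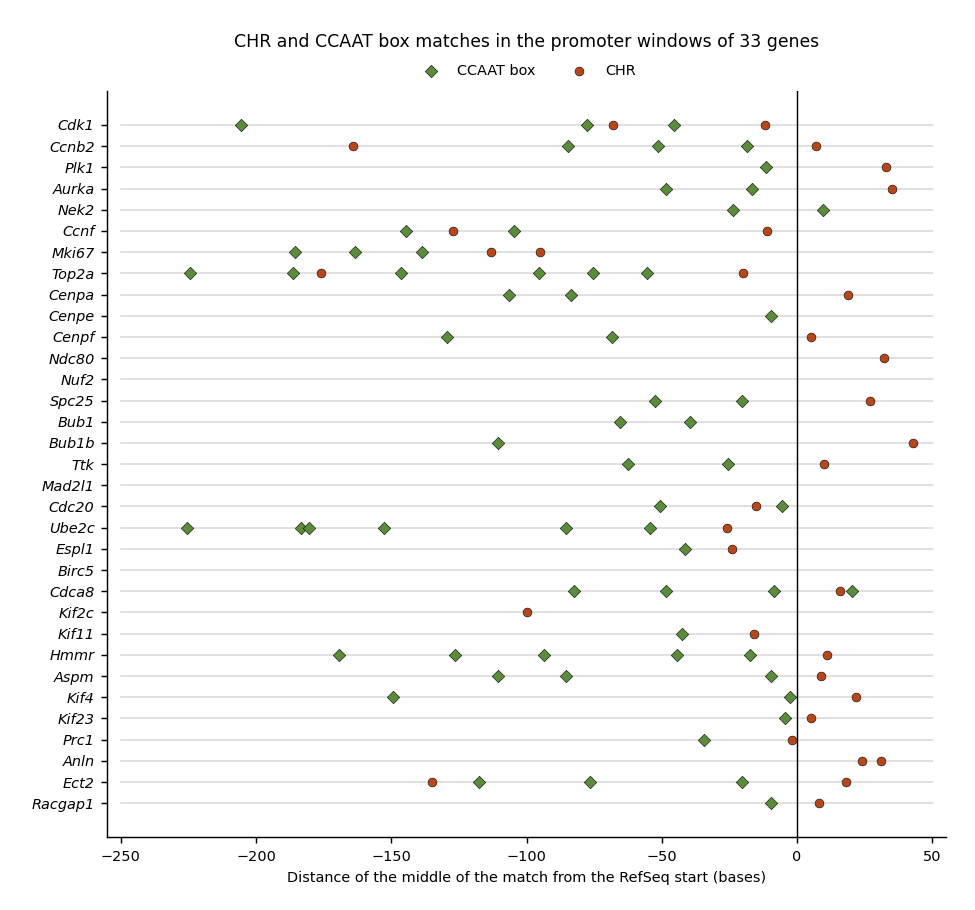
Matches of the CHR (TTTGAA, red circles) and of the CCAAT box (green diamonds), on either strand, along the promoter windows of 33 genes, by distance in bases from the RefSeq start at 0; for Prc1 and Ect2 the first of their starts by coordinate is drawn. CHR matches gather near the start, within 50 bases of it in 25 genes, with CCAAT boxes mostly before them.

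The 250 bases before the start are shown for the 6 genes that hold TTTGAA there and had the largest mean genotype difference, 5′ to 3′ on the strand of the gene, with TTTGAA or its reverse complement TTCAAA and CCAAT or ATTGG in capitals. They show the spacing of the elements. Both traits, holding TTTGAA and a large difference, come from the choice of the genes, and a link between them was not tested.
Kif2c, chr4:117178773-117179022, minus strand: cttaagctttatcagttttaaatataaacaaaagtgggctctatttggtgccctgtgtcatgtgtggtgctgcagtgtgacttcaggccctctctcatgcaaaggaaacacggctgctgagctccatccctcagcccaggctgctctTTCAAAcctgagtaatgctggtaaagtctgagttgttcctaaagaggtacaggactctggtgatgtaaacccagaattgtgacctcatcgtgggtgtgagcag
Ccnf, chr17:24251410-24251659, minus strand: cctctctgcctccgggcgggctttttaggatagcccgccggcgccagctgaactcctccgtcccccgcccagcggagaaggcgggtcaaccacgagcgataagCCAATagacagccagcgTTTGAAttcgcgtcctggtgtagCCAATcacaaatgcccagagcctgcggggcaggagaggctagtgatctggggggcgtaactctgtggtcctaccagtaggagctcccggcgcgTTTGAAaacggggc
Prc1, chr7:80294226-80294475, plus strand: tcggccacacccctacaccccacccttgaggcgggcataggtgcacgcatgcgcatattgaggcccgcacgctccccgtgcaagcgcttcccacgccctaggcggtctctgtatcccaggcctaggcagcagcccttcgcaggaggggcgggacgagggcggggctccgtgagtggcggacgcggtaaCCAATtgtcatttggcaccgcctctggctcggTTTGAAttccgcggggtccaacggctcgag
Espl1, chr15:102296043-102296292, plus strand: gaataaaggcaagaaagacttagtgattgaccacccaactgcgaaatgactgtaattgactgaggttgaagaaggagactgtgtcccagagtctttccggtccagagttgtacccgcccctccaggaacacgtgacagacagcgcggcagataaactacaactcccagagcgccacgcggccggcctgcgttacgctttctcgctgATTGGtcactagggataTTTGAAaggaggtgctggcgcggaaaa
Kif11, chr19:37376132-37376381, plus strand: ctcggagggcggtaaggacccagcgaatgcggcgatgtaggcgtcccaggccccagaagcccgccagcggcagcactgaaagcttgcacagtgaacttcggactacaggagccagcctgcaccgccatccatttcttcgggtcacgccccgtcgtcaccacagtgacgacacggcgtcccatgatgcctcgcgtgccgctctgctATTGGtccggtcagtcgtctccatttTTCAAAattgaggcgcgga
Ube2c, chr2:164769679-164769928, plus strand: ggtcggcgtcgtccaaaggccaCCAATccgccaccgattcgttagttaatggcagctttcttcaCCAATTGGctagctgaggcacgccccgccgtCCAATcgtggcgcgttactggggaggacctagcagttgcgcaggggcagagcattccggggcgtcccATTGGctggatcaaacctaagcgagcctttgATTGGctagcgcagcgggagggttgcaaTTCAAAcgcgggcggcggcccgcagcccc
In Prc1 (from the start that lies further along the chromosome), Espl1, Kif11 and Ube2c the TTTGAA begins 30, 27, 19 and 29 bases before the start, with a CCAAT box beginning at 62, 44, 45 and 57 bases before it. Ccnf holds 2 of each. Ube2c holds 6 CCAAT matches, of which the pair in CCAATTGG overlaps. Kif2c, with the largest genotype difference under Lgr5-Med, has its match 103 bases before the start and no CCAAT box in these bases.

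Genes that carry these letters without being among the 39 stood near the background. Of 633 such genes with TTTGAA and a CCAAT box tested under Lgr5-Med, 55.6% were lower in Zip7 KO with a median of -0.03, and of 625 tested under Lgr5-Hi 45.4% were, with a median of 0.02, beside 55.8% and 45.0% of all genes with medians of -0.03 and 0.02. Within the 39, the 27 with TTTGAA had a median of -0.19 under Lgr5-Med and the 6 without it -0.18.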

How the data were processed

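The authors deposited log2 values per probe set of 4 Affymetrix arrays, made with RMA per the submitters' processing notes; the log scale was taken from the values (3.08 to 14.6, with 0 missing), and for the software and its version the sources used here give nothing. All columns were used and 0 left out. Of 35557 probe sets, 21789 have 1 gene symbol in the platform annotation and were used. The 39 symbols matched RefSeq (GRCm38.p6) by Entrez ID without change. A comparison used each gene that exceeded the floor on either of its 2 arrays, without the receptor genes. Each difference is 1 array minus 1 array, with no test. Members and lists were chosen with earlier results of these data known. The genes given in full were the 10 largest genotype differences per label, the 6 largest fraction differences per genotype, and Mki67, Top2a, Cdk1 and Plk1; from other lists the 3 highest and 3 lowest per label. Alternatives were quantile normalisation, median centring, loess on mean level (statsmodels 0.14.6, fraction 0.3), probe set averaging, probe sets with several symbols, and other floors. Counting was tested on simulated data (Python 3.11.15, pandas 2.3.3). The number of arrays limits the precision.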

Additional observations from a re-analysis of the deposited data

Results flagged for a closer look

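For 4 genes the genotype difference had opposite signs under the labels Lgr5-Hi and Lgr5-Med, with a size of at least 0.1 under each. The first minus the second was 0.41 for the spindle gene Hmmr, 0.35 for the checkpoint kinase Bub1, 0.31 for the centromeric histone Cenpa and 0.26 for the APC/C activator Cdc20. Each was higher in Zip7 KO under Lgr5-Hi and lower under Lgr5-Med, and these signs were the same under quantile normalisation, centring and removal of the trend on mean level. The share of all genes that meet this rule was not computed, so the count of 4 has no background beside it. Of all genes, 60.5% had a genotype difference under Lgr5-Hi above that under Lgr5-Med. With 1 array per group the difference was not tested.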

How the results depend on the processing

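The medians of the 39 genes stayed below 0 in each of the 4 comparisons under quantile normalisation, centring and removal of the loess trend. Probe set averaging, probe sets with several symbols and other floors could hardly move these medians. All 39 lie above the floor, and only Top2a has a second probe set of 1 symbol. Under Lgr5-Hi the genotype median became -0.14 with quantile normalisation and -0.14 with the loess trend removed. Centring arrays on their median gave -0.32 for the genotype difference under Lgr5-Med and -0.27 between fractions in control. Under Lgr5-Med 19 genes were then lower by at least 0.322, against 17.4% of all genes. With the loess trend removed 3 were, against 6.95%. The median of the 39 for the genotype difference under Lgr5-Hi minus that under Lgr5-Med became 0.021 under quantile normalisation and 0.17 under centring. Centring shifts this value by the same amount for every gene, so it does not set the 39 apart from all genes. Under quantile normalisation no value over all genes was computed. The count of genes lower by 2-fold, 0, became 2, 8, 12 and 3 at 0.322, for genotype under Lgr5-Hi and Lgr5-Med and for fractions in control and Zip7 KO. The shares of all genes lower by 0.322 were 5.56%, 8.40%, 13.2% and 12.5% in the same order. In the 250 upstream bases alone, 12 of 33 promoters held TTTGAA (36.4%, against 18.3% of all genes) and 11 both elements (33.3%, against 7.34%), a smaller contrast than in the whole window for each. No single gene past 0.322 changed sign under any of the alternatives. The number lower under both labels lay between 26 and 30, while the share of all genes moved between 30.3% and 41.3%. The number with both Zip7 KO arrays below both controls lay between 13 and 14 under quantile normalisation, centring and averaging of probe sets, with 15.8% to 23.7% of all genes. No paired analysis was possible because each group has 1 array and the labels give no replicate numbers. The RMA values carry no count or depth, and signal over background limits Hmmr, Cdc25c and Ttk most, which did not pass a floor at percentile 99 on every array.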
